A study of Homo sapiens with 4 samples.

Results

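The genes described here were 10 imprinted genes with roles in growth, namely H19, MEG3, DLK1, PEG3, PEG10, MEST, PLAGL1, NDN, MAGEL2 and GRB10. They were taken by symbol from the 39323 genes of the expression tables, and IGF2 and CDKN1C, the other well-known imprinted growth genes, were left out of the set by the same rule. All 10 were found, 7 of them averaged at least 1 TPM across the libraries and entered the comparisons, and H19, DLK1 and PEG3 did not reach that level. TPM is a share of the library corrected for transcript length, so that levels of different genes can be set side by side within a library.

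The study asked how SKP2, the substrate-binding part of an E3 ubiquitin ligase that drives entry into S phase, affects myogenic differentiation, senescence and growth of fusion-negative rhabdomyosarcoma (FN-RMS), a soft tissue tumor of children with a skeletal muscle identity. RNA-seq was done on the established FN-RMS lines RD and JR1, each infected with a pLKO.1-puro lentivirus carrying shSCR, a non-targeting hairpin (genotype WT), or shSKP2, the hairpin shSKP2.2 against human SKP2 (genotype SKP2 knockdown). There was 1 poly-A library per line and hairpin, 4 libraries in all, so differences could not be checked against replicates and are given without p-values. Every library came from infected cells of a cultured line with mutated p53, and uninfected cells were not among the 4 libraries.

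Imprinted genes are expressed mainly from the copy inherited from the mother or mainly from that inherited from the father, because DNA methylation laid down in the germ line marks the copies differently. Many paternally expressed genes promote fetal growth and many maternally expressed genes restrain it, and several of them are high in embryonic mesoderm and in muscle progenitors. They sit in clusters where a shared control region acts over several genes, so that neighbors can be read side by side. TPM sum both parental copies, and allelic expression was not measured by these libraries.

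Promoter sequences are shown for the members whose RNA moved apart from their neighbor or most between libraries. RefSeq windows (GRCh38.p14) of 300 bases, 250 before and 50 after a transcript start, were found for 7 of the 10 genes. Each is written 5′ to 3′ on the strand of the gene, with CG dinucleotides, the sites of DNA methylation that carry imprints, in capitals. NDN (chr15:23687256-23687555, minus strand) and MAGEL2 (chr15:23647818-23648117, minus strand) are intronless neighbors, and MEST is shown at its outermost start (chr7:130485925-130486224, plus strand) and at the one of its 5 listed starts whose window holds the most CG (chr7:130491835-130492134, plus strand).
NDN: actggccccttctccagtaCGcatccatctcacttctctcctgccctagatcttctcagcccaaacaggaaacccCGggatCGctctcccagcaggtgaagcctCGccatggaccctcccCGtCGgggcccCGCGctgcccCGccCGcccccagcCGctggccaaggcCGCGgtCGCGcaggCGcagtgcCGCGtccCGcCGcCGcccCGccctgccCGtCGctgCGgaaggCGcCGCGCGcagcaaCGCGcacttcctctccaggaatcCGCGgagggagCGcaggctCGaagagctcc
MAGEL2: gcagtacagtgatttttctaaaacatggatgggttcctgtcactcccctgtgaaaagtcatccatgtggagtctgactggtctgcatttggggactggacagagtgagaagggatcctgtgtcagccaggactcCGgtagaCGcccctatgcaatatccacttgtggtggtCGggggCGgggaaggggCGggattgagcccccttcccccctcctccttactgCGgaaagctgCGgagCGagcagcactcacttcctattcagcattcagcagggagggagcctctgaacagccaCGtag
MEST outermost start: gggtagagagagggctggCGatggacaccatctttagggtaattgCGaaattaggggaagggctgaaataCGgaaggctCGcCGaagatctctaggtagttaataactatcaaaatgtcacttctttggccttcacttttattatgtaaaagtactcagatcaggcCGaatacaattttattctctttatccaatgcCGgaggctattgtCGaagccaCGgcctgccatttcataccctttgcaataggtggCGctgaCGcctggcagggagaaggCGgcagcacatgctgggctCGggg
MEST start with most CG: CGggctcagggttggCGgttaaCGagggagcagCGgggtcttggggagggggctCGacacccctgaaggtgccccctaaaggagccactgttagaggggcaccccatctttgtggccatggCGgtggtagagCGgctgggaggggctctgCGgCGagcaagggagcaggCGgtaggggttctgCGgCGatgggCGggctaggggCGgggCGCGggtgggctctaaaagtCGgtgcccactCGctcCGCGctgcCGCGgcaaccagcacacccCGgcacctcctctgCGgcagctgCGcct
The NDN window held 35 CG and 72.0% G or C, and 14.1% of the 35116 RefSeq windows of this length held as many CG. The MAGEL2 window held 9 CG, a number reached by 58.4% of windows. The MEST windows held 13 and 25 CG, reached by 51.7% and 32.03% of windows, and the median over all windows was 14. CAGCTG, which reads the same on both strands and is a form of the E-box CANNTG that myogenic factors bind, stood 1 time in the MEST window with most CG and in none of the other printed windows, whereas 17.9% of all windows hold it. CANNTG, which includes CAGCTG, was found 1 time in each MEST window and in that of NDN and 3 times in that of MAGEL2, and 68.7% of all windows hold it. These are letters in a window and not measured binding sites.

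Members of the set also host microRNAs, whose mature sequences from RefSeq are shown because their rows in the tables bear on what the libraries could measure. The seed, bases 2 to 8, is in capitals. MEST holds miR-335 (chr7, plus strand), H19 holds miR-675 (chr11, minus strand) and MEG3 holds miR-770 (chr14, plus strand), and no seed is shared among the 5 arms.
miR-335-5p: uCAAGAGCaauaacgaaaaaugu
miR-335-3p: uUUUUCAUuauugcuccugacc
miR-675-5p: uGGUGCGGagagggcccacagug
miR-675-3p: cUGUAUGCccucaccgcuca
miR-770-5p: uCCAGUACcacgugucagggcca
MIR335, MIR675 and MIR770 were listed at 0 TPM in all 4 libraries, as were MIR483 and the small nucleolar RNA genes SNORD107, SNORD64, SNORD109A and SNORD116-1 of the imprinted clusters. Mature microRNAs are too short for this kind of library, so these zeros say nothing of their level.

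The knockdown was seen at the targeted transcript, with SKP2 in RD at 92.8 TPM with shSCR and 7.40 TPM with shSKP2, and in JR1 at 46.5 TPM and 2.72 TPM. The lines expressed genes of the skeletal muscle lineage, since 7 of 8 myoblast genes were at 1 TPM or more in every library, and MYF5 was at 0. The summed level of this list moved with the hairpin, in RD from 432 to 599.95 TPM, in JR1 from 619 to 855 TPM. CHRNA1 made up most of this difference (RD 196 and 314 TPM, JR1 284 and 425 TPM). Of the 7 tested genes, 6 had log2 changes above 0 in RD and 5 in JR1, with medians of 0.33 and 0.38. The highest were MYOG in RD at 0.87 and NCAM1 in JR1 at 1.32. CHRND gave -0.76 and -0.60, and DES gave 0.14 in RD and -0.50 in JR1. The part of these shifts in the values below was not tested. Of 13 markers of leukocytes, endothelium, epithelium and fibroblasts, CD68 was the highest in RD at up to 2.87 TPM, and LUM the highest in JR1 at up to 3.46 TPM. Short structural RNAs such as 7SL RNA took 58.6% (shSCR) and 69.0% (shSKP2) of TPM in the RD libraries and 66.5% and 72.1% in the JR1 libraries. The 12985 tested genes had median log2 changes of -0.27 (RD) and -0.21 (JR1). TPM have a fixed sum, but the part of the short structural RNAs in these medians was not tested. Leaving out the 642 genes of these RNAs and scaling the other TPM up to the same total gave medians of 0.12 and 0.01. These were taken over the 15228 genes tested on that scale. The changes of the members are also given after this removal.

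The 10 genes covered a wide range of levels. PEG10 reached 313 TPM and MEST 162 TPM at their highest, MEG3, NDN, GRB10 and PLAGL1 lay between 9.53 and 53.2 TPM, MAGEL2 stayed below 10 TPM, and PEG3, DLK1 and H19 were at 0.24 TPM or less everywhere. MEST led the order in both RD libraries with 162 and 87.6 TPM, and PEG10 led it in both JR1 libraries with 313 and 287 TPM. The lower end, PEG3, then DLK1 and H19, was the same in the 4 libraries. Some neighbors in the order were close, such as NDN (41.9 TPM), MEG3 (38.95 TPM), PEG10 (37.0 TPM) and PLAGL1 (35.25 TPM) in RD shSCR, or GRB10 (13.98 TPM) and MEG3 (13.8 TPM) in RD shSKP2, and without replicates the spread that would separate them is not known. Summed over the set, the level was 370 TPM in RD shSCR, 210.3 TPM in RD shSKP2, 495 TPM in JR1 shSCR and 361 TPM in JR1 shSKP2.

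**Figure D1:**
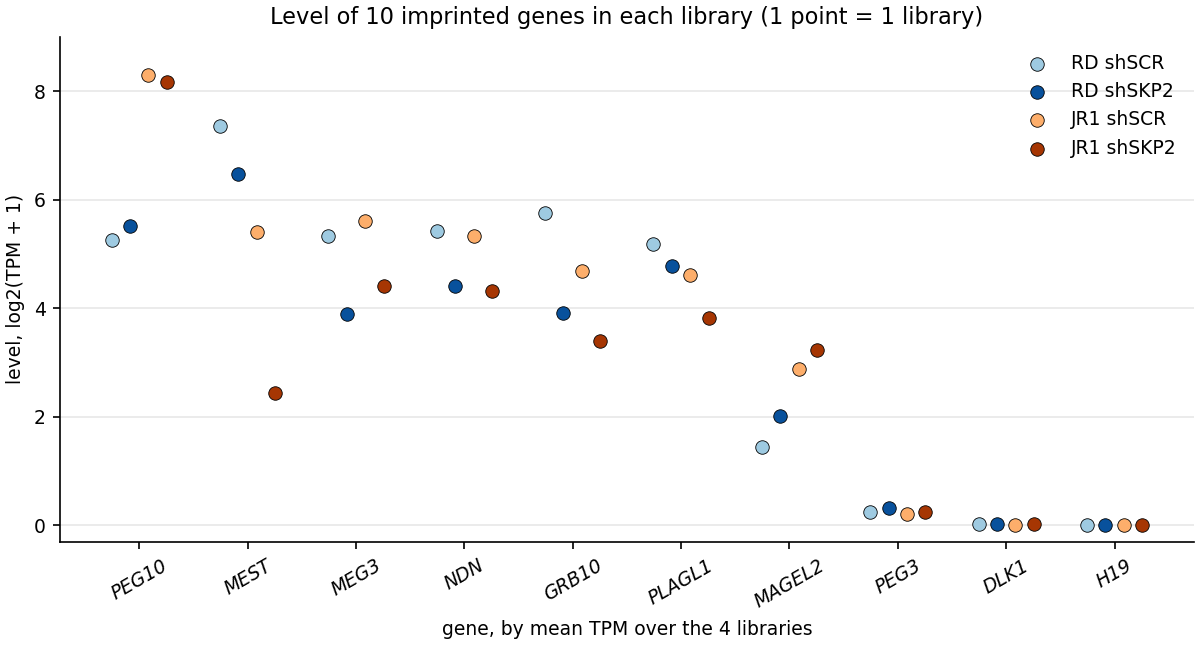
Level of the 10 imprinted genes as log2(TPM + 1) on the vertical axis, genes ordered by mean TPM on the horizontal axis, and 1 point per library. PEG10 stands at 313 and 287 TPM in JR1 and at 37.0 and 44.9 TPM in RD, MEST is lowest in JR1 shSKP2 at 4.40 TPM, and H19, DLK1 and PEG3 lie at or near 0.

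H19, a maternally expressed long noncoding RNA downstream of IGF2, was listed at 0 TPM in all 4 libraries. The gene is on chromosome 11 from base 1995176 to base 2001466 (GRCh38), 127.6 kb from IGF2 and under the same imprinting control region. IGF2, the paternally expressed growth factor, stood at 1294 TPM in RD shSCR, 1473 TPM in RD shSKP2, 1401 TPM in JR1 shSCR and 1196 TPM in JR1 shSKP2, which ranked it between 19 and 26 from the highest among all genes. The pair was thus at opposite ends of the range in every library. A listed zero can be a failed estimate, and for H19 this was not tested. Of 80 ribosomal protein genes 77 were above 0 in every library, but other genes cannot show whether the H19 estimate failed. Of the 39323 genes, 13287 were listed at 0 in all 4.

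DLK1, a paternally expressed membrane protein of the Notch ligand family that marks immature mesodermal cells, was also near the floor. It lies on chromosome 14 from base 100726892 to base 100738224, and its level was 0.02 TPM in RD shSCR, 0.01 TPM in RD shSKP2, 0 TPM in JR1 shSCR and 0.01 TPM in JR1 shSKP2. PEG3, a paternally expressed zinc finger protein on chromosome 19 from base 56810082 to base 56840726, was at 0.18, 0.24, 0.15 and 0.18 TPM in the same order of libraries. It shares its exons in part with ZIM2, whose row overlaps it on the same strand and was at 0.05 TPM or less, so that reads of the pair cannot be fully told apart. No fold change is given for these genes.

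After SKP2 depletion, MEG3, NDN and GRB10 were at least 2-fold lower in both lines, MEST was so in JR1, and no member was at least 2-fold higher in either. Changes are log2 of the ratio of TPM + 1, which understates the change of low genes, and a gene was counted as changed at 1 or more in size. In RD 3 of the 7 tested members fell, where 7.37% of all tested genes did, and 0 rose, where 1.08% did. In JR1 4 of 7 fell against a background of 9.05%, and 0 rose against 1.78%. The median change of the 7 was -0.88 in RD, and in JR1 it was -1.002. After removal of the structural RNAs, MEG3 and GRB10 remained among the fallen genes in RD (2 of 7, background 3.46%) and MAGEL2 rose (1 of 7, background 4.45%), and in JR1 MEST and GRB10 fell (2 of 7, background 7.51%) and 0 rose (background 4.91%). The median of the 7 was then -0.47 in RD and -0.77 in JR1. In bulk RNA, fewer cells that express a gene and less RNA of it per cell cannot be told apart.

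**Figure D2:**
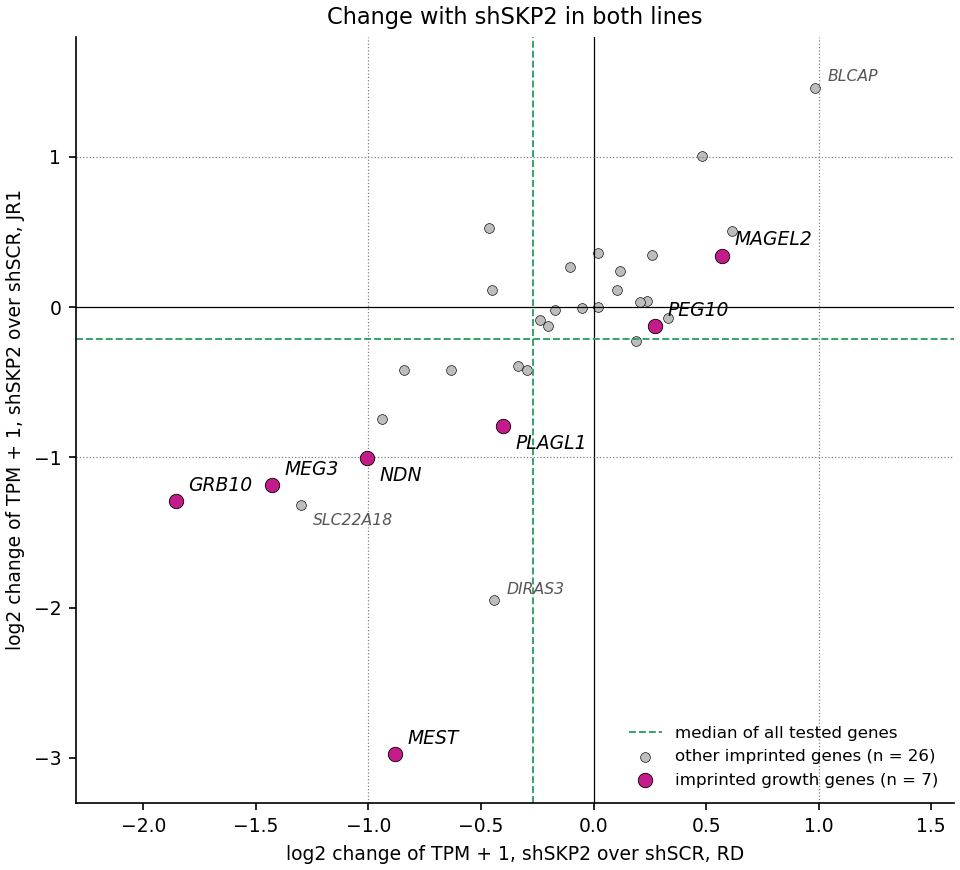
Log2 change of TPM + 1 with shSKP2 over shSCR in RD (horizontal axis) and JR1 (vertical axis), with the tested imprinted growth genes in magenta and the 26 other tested imprinted genes in gray, dotted lines at 2-fold and dashed lines at the median of all tested genes (-0.27 and -0.21). GRB10, MEG3 and NDN lie past the 2-fold line in both lines, MEST at -0.88 in RD and -2.97 in JR1, and MAGEL2 is the highest member at 0.57 and 0.34.

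MEG3, a maternally expressed long noncoding RNA with growth-restraining activity, fell in both lines. On chromosome 14 from base 100826108 to base 100861026, 87.9 kb downstream of DLK1, it was at 38.95 TPM in RD shSCR and 13.8 TPM in RD shSKP2, and at 47.4 TPM in JR1 shSCR and 20.3 TPM in JR1 shSKP2. Both shSKP2 libraries were below both shSCR libraries. The TPM ratio was 2.82-fold lower in RD and 2.33-fold lower in JR1, log2 changes of -1.43 and -1.18, at rank 312 and rank 763 from the lowest of all tested genes. After removal of the structural RNAs the changes were -1.06 and -0.95, so that the JR1 change no longer reached 2-fold.

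MEG8, MEG9 and RTL1 of the same cluster had lower levels than MEG3, and each was lower in shSKP2 than in shSCR in each line. So were 75.0% of all tested genes in RD and 68.9% in JR1. MEG8, a noncoding RNA 28.6 kb further along the same strand, was at 1.89 TPM in RD shSCR, 1.29 TPM in RD shSKP2, 3.44 TPM in JR1 shSCR and 2.39 TPM in JR1 shSKP2, changes of -0.34 and -0.39, or -0.11 and -0.24 after removal. MEG9 was at 0.39, 0.19, 0.56 and 0.28 TPM, and RTL1, the paternally expressed retrotransposon-derived gene of the cluster, at 1.38, 0.75, 0.64 and 0.40 TPM, both under the level for testing. The bounds of RTL1 and MEG8 overlap on opposite strands, so that they may share reads if the counting did not use the strand. DIO3, which inactivates thyroid hormone, was listed at 0. MEG3 was thus present in both lines. Of its paternally expressed neighbors, DLK1 and DIO3 were at or near 0 and RTL1 lay between 0.40 and 1.38 TPM.

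MEST, a paternally expressed protein with an alpha/beta hydrolase fold that is high in fetal mesoderm, fell in JR1. The gene, on chromosome 7 from base 130486175 to base 130506465, was at 162 TPM in RD shSCR, 87.6 TPM in RD shSKP2, 41.45 TPM in JR1 shSCR and 4.40 TPM in JR1 shSKP2. JR1 shSKP2 stood far below the other libraries, and both RD libraries were above both JR1 libraries. The level was 9.42-fold lower with shSKP2 in JR1, a log2 change of -2.97 at rank 38 from the lowest of all tested genes and -2.89 after removal of the structural RNAs. In RD the ratio was 1.85-fold lower, a change of -0.88 that did not reach 2-fold and became -0.47 after removal. The change in RD minus that in JR1 was 2.09 on the log2 scale, or 2.43 after removal, and this difference was not tested. TPM per gene do not separate the transcript starts whose windows are printed above.

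On the scale of TPM + 1, none of the tested genes beside MEST reached 2-fold. The plain TPM of COPG2 were 2.06-fold lower in RD. COPG2, a coat protein gene on the opposite strand that overlaps MEST by 228 bases, was at 13.9 TPM in RD shSCR, 6.74 TPM in RD shSKP2, 14.1 TPM in JR1 shSCR and 8.01 TPM in JR1 shSKP2, changes of -0.94 and -0.75, or -0.60 and -0.54 after removal, and its change in RD was thus past that of MEST. MESTIT1, an antisense RNA that overlaps 4803 bases of MEST, was at 0.18 TPM or less. The libraries were directional, but whether the counting used the strand is not given in the sources used here. KLF14, a transcription factor gene 224.2 kb away, gave -0.29 and -0.42. In JR1 the ratio of MEST to COPG2 in TPM went from 2.94 to 0.549, and in RD it was 11.7 and 12.997.

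PEG10, a paternally expressed gene derived from a retrotransposon that still encodes gag-like and pol-like proteins, was the member that differed most between the lines in shSCR and did not reach 2-fold with shSKP2 in either line. On chromosome 7 from base 94656325 to base 94669695, it was at 37.0 TPM in RD shSCR, 44.9 TPM in RD shSKP2, 313 TPM in JR1 shSCR and 287 TPM in JR1 shSKP2. Both JR1 libraries were far above both RD libraries. The change with shSKP2 was 0.27 (RD) and -0.13 (JR1), but the JR1 value turned to 0.09 when centered on all tested genes and to 0.14 after removal of the structural RNAs. The TPM in RD were 8.45-fold lower than in JR1 in shSCR and 6.38-fold lower in shSKP2, differences of -3.05 and -2.65 at rank 31 and rank 30 from the lowest of all tested genes.

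The neighbors of PEG10 stood on the same side between the lines. SGCE, the paternally expressed epsilon-sarcoglycan gene, starts 119 bases away on the opposite strand and was at 5.16 TPM in RD shSCR, 3.51 TPM in RD shSKP2, 28.8 TPM in JR1 shSCR and 31.2 TPM in JR1 shSKP2. Its difference of RD over JR1 was -2.27 in shSCR and -2.84 in shSKP2. PPP1R9A, a gene for an actin-binding neurabin 237.5 kb downstream, was at 1.59, 1.41, 3.95 and 4.96 TPM in the same order, differences of -0.93 and -1.31. PEG10 exceeded SGCE by between 7.17 times, in RD shSCR, and 12.8 times, in RD shSKP2. Of 7 tested retrotransposon-derived relatives of PEG10 elsewhere in the genome, 0 reached 2-fold with shSKP2 in either line as deposited, with medians of -0.21 and -0.08. Since 7.37% of all tested genes fell and 1.08% rose in RD, and 9.05% and 1.78% in JR1, 0 of 7 does not set them apart. After removal of the structural RNAs 9 were tested, and 1 rose (RTL8A, 1.07) and 1 fell (PNMA2, -1.79) in JR1. They ranged in RD from -0.79 for RTL6 to 0.26 for RTL8A, and in JR1 from -0.73 for RTL6 to 0.78 for RTL8A. Between the lines in shSCR they ranged from 0.13 for RTL8C to 0.72 for RTL6, and in shSKP2 from -0.22 for RTL8C to 0.66 for RTL6. After removal of the structural RNAs 4 of 9 were below 0 in shSCR, the lowest PNMA2 at -0.74.

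PLAGL1, a paternally expressed zinc finger transcription factor that restrains the cell cycle, did not reach 2-fold in either line. On chromosome 6 from base 143940300 to base 144064599, it was at 35.25 TPM in RD shSCR, 26.4 TPM in RD shSKP2, 23.3 TPM in JR1 shSCR and 13.05 TPM in JR1 shSKP2. Both RD libraries were above both JR1 libraries. In RD the change was -0.40 and in JR1 it was -0.79, which became 0.00 and -0.56 after removal of the structural RNAs. HYMAI, a noncoding RNA that lies within PLAGL1 on the same strand and may share its reads, was at 1.34, 1.24, 0.82 and 0.52 TPM. The relatives PLAG1 and PLAGL2, which encode related zinc finger proteins, gave -0.38 and 0.14 in RD and -0.14 and 0.50 in JR1, where PLAG1 turned to 0.08 after removal.

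NDN and MAGEL2, paternally expressed neighbors of the MAGE family that lie 37.5 kb apart on the same strand, stood on opposite sides of 0. NDN (necdin), on chromosome 15 from base 23685400 to base 23687305, binds growth regulators in neurons and myoblasts and was at 41.9 TPM in RD shSCR and 20.3 TPM in RD shSKP2, and at 39.0 TPM in JR1 shSCR and 18.98 TPM in JR1 shSKP2. The lines nearly coincided and both shSKP2 libraries were below both shSCR libraries. The changes of -1.01 and -1.002 were just inside the 2-fold limit, at rank 936 and rank 1169 from the lowest, and became -0.62 and -0.77 after removal of the structural RNAs.

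MAGEL2, a partner of ubiquitin ligases that acts in endosomal sorting, lies on chromosome 15 from base 23643549 to base 23647867. It was at 1.73 TPM in RD shSCR, 3.05 TPM in RD shSKP2, 6.38 TPM in JR1 shSCR and 8.36 TPM in JR1 shSKP2. The order of the libraries was not that of NDN, since both JR1 libraries were above both RD libraries and each shSKP2 library was above its control. Its change in RD was 0.57 and in JR1 0.34, which became 1.07 and 0.63 after removal. The TPM ratio of NDN to MAGEL2 was 24.2 in RD shSCR and 6.67 in RD shSKP2, and 6.11 in JR1 shSCR and 2.27 in JR1 shSKP2. The promoter windows printed above hold 35 and 9 CG in the same pair. The pair was printed because its RNA moved apart, and a link between these counts and the RNA was not tested.

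Of the 7 tested genes of the chromosome 15 cluster, NDN was the only one past 2-fold in either line as deposited, and MAGEL2 in RD was the only one after removal of the structural RNAs. MKRN3, a paternally expressed ubiquitin ligase gene, was at 6.98 TPM in RD shSCR, 8.56 TPM in RD shSKP2, 6.71 TPM in JR1 shSCR and 8.81 TPM in JR1 shSKP2, changes of 0.26 and 0.35. SNRPN, a splicing protein gene that shares a transcript with SNURF, was at 61.8, 59.5, 52.9 and 52.7 TPM, values of -0.05 and -0.01 that turned to 0.36 and 0.26 after removal. SNHG14, the long host RNA of the small nucleolar RNAs, gave 0.21 and 0.03, and UBE3A, the ubiquitin ligase gene expressed from the maternal copy in neurons, 0.12 and 0.24. NPAP1 was at 0.01 TPM or less. Of 10 tested MAGE relatives outside the cluster, 0 reached 2-fold in RD, from -0.83 for MAGED2 to 0.24 for MAGEH1, and 1 rose in JR1, MAGED4B with 2.24. Among all tested genes 7.37% fell and 1.08% rose in RD, and 9.05% fell and 1.78% rose in JR1. MAGED4B is a near-identical copy of MAGED4, which was the lowest at -0.93, and the sum of the pair changed by -0.10, so that the split between the copies is uncertain.

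**Figure D3:**
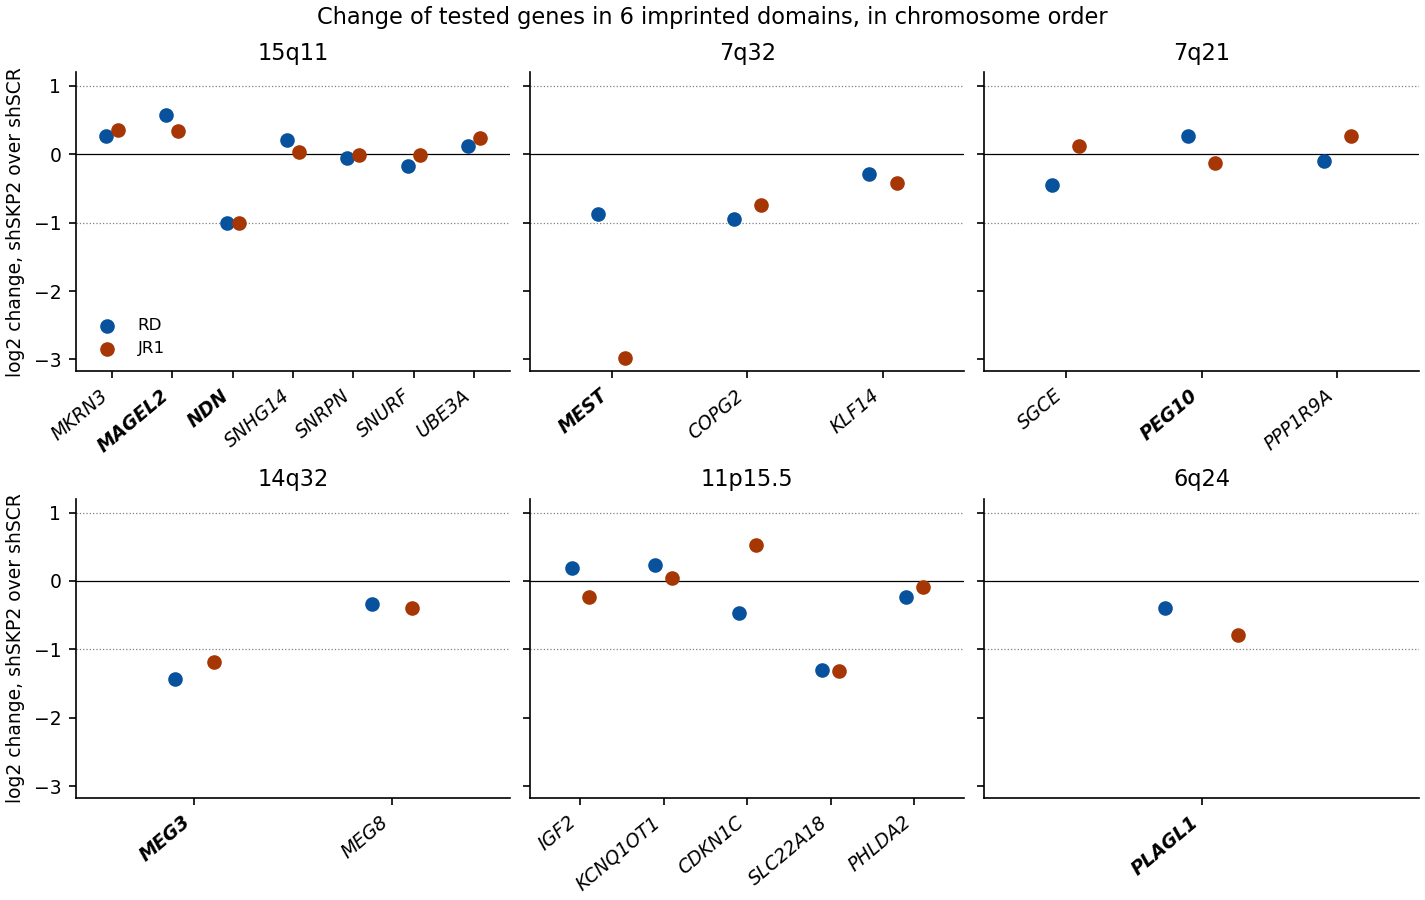
Log2 change of TPM + 1 with shSKP2 over shSCR (vertical axis) for tested genes of 6 imprinted clusters in chromosome order, RD in blue and JR1 in brown, members in bold and dotted lines at 2-fold. In the cluster on chromosome 15, NDN lies at -1.01 and -1.002 while the other 6 genes lie between -0.17 and 0.57, and MEST in JR1 at -2.97 is the lowest point.

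GRB10, an adaptor protein that binds the receptors for insulin and IGF1 and dampens their signal, had the largest change among the members in RD and fell in both lines. The gene lies on chromosome 7 from base 50590068 to base 50793453, and the parental copy its RNA came from was not measured. It was at 53.2 TPM in RD shSCR and 13.98 TPM in RD shSKP2, and at 24.8 TPM in JR1 shSCR and 9.53 TPM in JR1 shSKP2. Both shSKP2 libraries were below both shSCR libraries. The TPM were 3.80-fold lower in RD and 2.60-fold lower in JR1, changes of -1.85 and -1.29 at rank 118 and rank 579 from the lowest, and they stayed past 2-fold after removal of the structural RNAs with -1.49 and -1.09. Its neighbor DDC, a decarboxylase of dopamine and serotonin synthesis, was listed at 0.

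Of 6 partners of GRB10 in IGF and insulin signaling, all tested, 0 reached 2-fold in either line, with medians of 0.09 (RD) and 0.23 (JR1). Among all tested genes 7.37% fell and 1.08% rose in RD, and 9.05% fell and 1.78% rose in JR1. A count of 0 of 6 thus does not set the list apart. IGF1R, the receptor for both IGF ligands, was at 17.8 TPM in RD shSCR, 18.9 TPM in RD shSKP2, 15.02 TPM in JR1 shSCR and 19.45 TPM in JR1 shSKP2. INSR, the insulin receptor, was at 3.84, 4.20, 1.59 and 2.65 TPM. The TPM ratio of GRB10 to IGF1R went from 2.99 to 0.739 in RD and from 1.65 to 0.490 in JR1. NEDD4, a ubiquitin ligase known to bind GRB10, was the highest of the list in RD at 0.49, INSR the highest in JR1 at 0.49, and IRS2, a docking protein of the receptors, the lowest in both at -0.30 and -0.06, or 0.06 and 0.20 after removal of the structural RNAs. IGF2R, which clears IGF2 from the cell surface, gave 0.11 in each line.

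**Figure D4:**
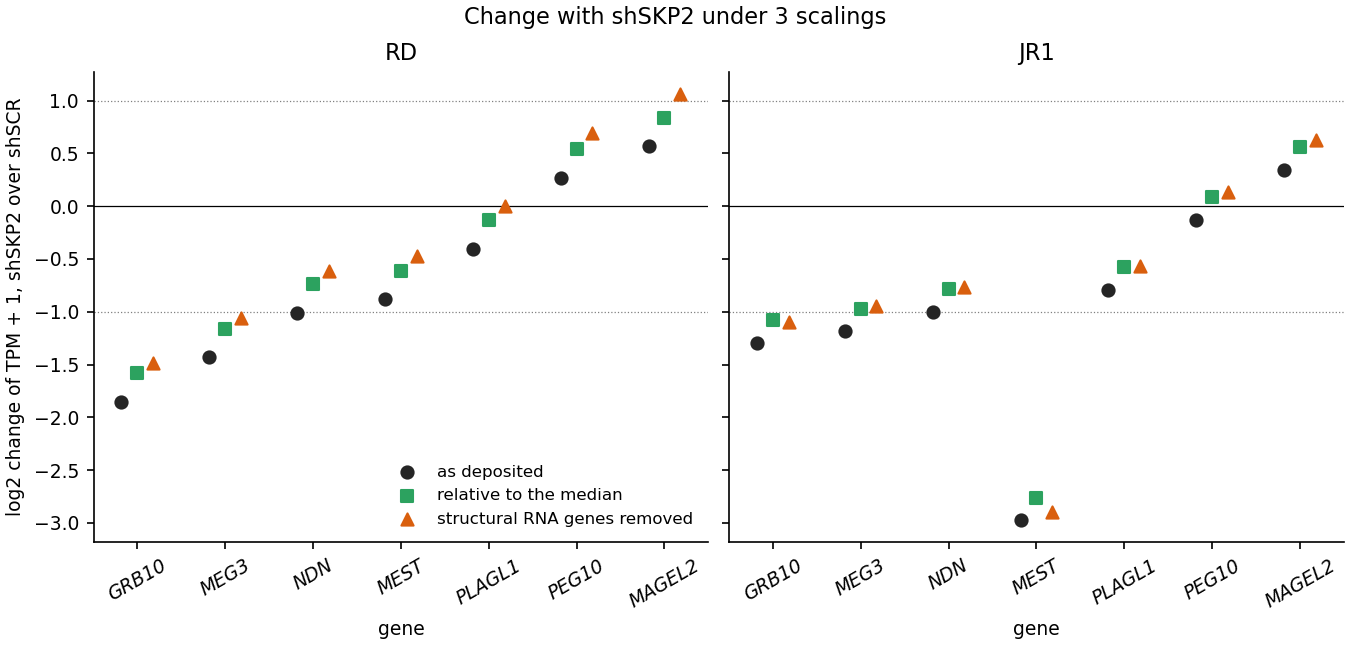
Log2 change of TPM + 1 with shSKP2 over shSCR in RD (left) and JR1 (right) for the 7 tested members, as deposited (circles), centered on the median change of the tested genes (squares) and after removal of the short structural RNA genes (triangles), with dotted lines at 2-fold. GRB10 stays past 2-fold in both lines under the 3 scalings, whereas NDN does so only as deposited.

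Between the lines, 4 of the 7 tested members were at least 2-fold apart in shSCR, where 9.94% of all tested genes were in either direction. MEST and GRB10 were higher in RD, with differences of 1.94 and 1.07, and PEG10 and MAGEL2 were higher in JR1, with -3.05 and -1.43. In shSKP2, 3 of 7 were at least 2-fold apart against a background of 8.09%, with MEST at 4.04, PEG10 at -2.65 and MAGEL2 at -1.21. The TPM of MEST were 3.91-fold higher in RD in shSCR and 19.9-fold higher in shSKP2. GRB10 was 0.51 apart in shSKP2, and its difference in shSCR was 0.79 after removal of the structural RNAs, below 2-fold. After removal MEST gave 1.65 and 4.08, PEG10 -3.37 and -2.82, and MAGEL2 -1.95 and -1.51. MEG3 gave -0.28 and -0.52, PLAGL1 0.58 and 0.96, and NDN 0.10 and 0.09, the last turning to -0.20 and -0.05 after removal. The median difference of the 7 was 0.10 in shSCR and 0.09 in shSKP2, or -0.20 and -0.05 after removal, and that of all tested genes was 0.23 and 0.17. The 3 fibroblast markers summed to 0.07 and 0.37 TPM in RD and 3.53 and 2.46 TPM in JR1, a difference carried by LUM. LUM made up 3.46 and 2.39 TPM in JR1, while PDGFRA and DCN were at 0.06 TPM or less. The part of this in the values of the members was not tested. These values share their libraries with the comparisons of shSKP2 and shSCR, so that the comparisons do not stand independently of each other.

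**Figure D5:**
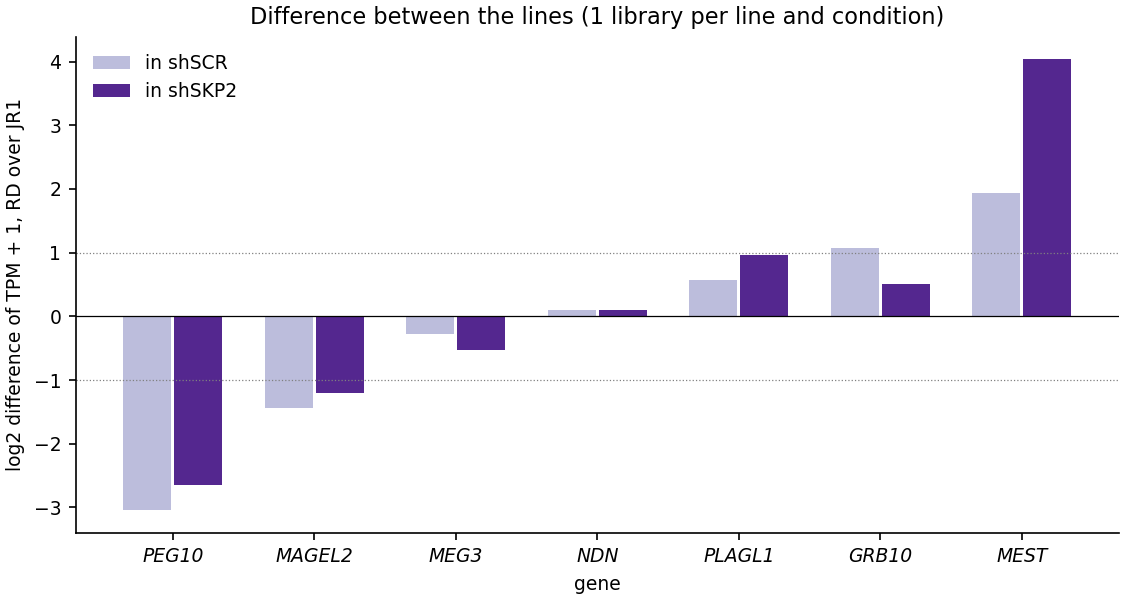
Log2 difference of TPM + 1 in RD over JR1 (vertical axis, bars from 0) for the 7 tested members in shSCR and shSKP2, with 1 library per line and condition and dotted lines at 2-fold. PEG10 and MAGEL2 lie below -1 and MEST above 1 in both conditions, and NDN lies at 0.10 and 0.09.

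Of the 37 other imprinted genes listed, 26 were tested, with a median change after SKP2 depletion of -0.08 (RD) and -0.00 (JR1). Among all tested genes 7.37% fell and 1.08% rose in RD, and 9.05% fell and 1.78% rose in JR1. In RD 0 of the 26 rose and 1 fell, SLC22A18, a transporter gene of the IGF2 region, at -1.30. In JR1 BLCAP (1.46) and NNAT (1.01), which lies within an intron of BLCAP, rose, and DIRAS3, a paternally expressed RAS-family gene with tumor-suppressing activity, (-1.95) and SLC22A18 (-1.31) fell. DIRAS3 was at 0.55 TPM in RD shSCR, 0.14 TPM in RD shSKP2, 4.96 TPM in JR1 shSCR and 0.54 TPM in JR1 shSKP2. Its fall in JR1 and its difference between the lines in shSCR thus rest on JR1 shSCR. BLCAP was also the highest in RD at 0.98. After removal of the structural RNAs 2 rose in RD, BLCAP (1.40) and FAM50B (1.18), and SLC22A18 fell, and in JR1 2 rose and 2 fell. IGF2 gave 0.19 and -0.23, the latter 0.04 after removal of the structural RNAs, and CDKN1C, the cell cycle inhibitor gene of the same region, -0.46 and 0.53. Removal moved the medians to 0.24 and 0.25. Between the lines, 2 of 26 were at least 2-fold apart in shSCR, SGCE and DIRAS3 (-1.94), and 2 in shSKP2, SGCE and PPP1R9A. The shares of all tested genes were 9.94% in shSCR and 8.09% in shSKP2. The highest were RB1 at 0.75 in shSCR and KCNQ1OT1 at 0.51 in shSKP2, and the medians were -0.04 and -0.08. After removal 29 were tested, 6 were at least 2-fold lower in RD than in JR1 in shSCR and 5 in shSKP2, 0 were higher, and the medians were -0.32 and -0.21. Of all 15228 genes tested then, 1064 were lower in RD and 717 higher in shSCR, and 755 lower and 956 higher in shSKP2.

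Of 11 genes that lay down or keep imprints, 7 were tested. With shSKP2 UHRF1 (-1.06) and DNMT1 (-1.02), which copy DNA methylation after replication, fell in RD, and DNMT3B (-1.38), which adds new methylation, fell in JR1. That is 2 of 7 in RD, where 7.37% of all tested genes fell, and 1 of 7 in JR1, where 9.05% did. DNMT1 was at 63.4 TPM in RD shSCR, 30.8 TPM in RD shSKP2, 29.5 TPM in JR1 shSCR and 16.3 TPM in JR1 shSKP2. The medians were -0.56 and -0.44, and ZNF445, a zinc finger protein that guards imprints, was the highest at -0.03 and 0.15, or 0.36 and 0.42 after removal. Of these, DNMT3B in JR1 alone reached 2-fold after removal of the structural RNAs. Between the lines in shSCR UHRF1 (1.20) and DNMT1 (1.08) were higher in RD and DNMT3B was the lowest at 0.21, and after removal 0 of 7 were 2-fold apart. In shSKP2 0 of 7 were 2-fold apart, from 0.35 for ZNF445 to 0.88 for DNMT1. Among all tested genes 9.94% were 2-fold apart in shSCR and 8.09% in shSKP2. DNA methylation itself was not measured here, and its part in the values of the members was not tested.

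For each of the 6 members that reached 10 TPM in at least 1 library, the tested genes with the most similar profile were found by the Euclidean distance of log2(TPM + 1) over the 4 libraries, centered on the mean of each gene. With 4 points the measure is coarse, and the points share their lines and hairpins. MEST had no gene within 0.5, and its nearest were GAGE12J (0.728) and the histone genes H3C13 (1.04) and H3C15 (1.17). PEG10 had 2 within 0.5, LAMB3 (0.165) and LINC02392 (0.446), followed by COL1A2 (0.521). GRB10 had 88, led by POLD1 (0.158), IGF2-AS (0.167) and PBX2 (0.199), and MEG3 had 202, led by CYP1B1 (0.122), LOXL4 (0.218) and DERA (0.221). PLAGL1 and NDN had 1621 and 1557, so that their profiles were common among the tested genes. The nearest to PLAGL1 were FLVCR1, SPDL1 and NOM1, and to NDN TMCO6, GPR108 and SSH3.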

How the data were processed

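RNA was extracted with a column kit, and poly-A libraries were prepared with a directional kit. The authors aligned reads with STAR 2.7.9a to GRCh38 and estimated expression with RSEM 1.3.2, per the labels and the study's methods, and deposited TPM with 2 decimals per gene. The annotation and strand setting are not given in the sources used here. Read counts cannot be taken back from TPM, and neither the depth of a library nor the precision of a value is known.

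TPM were used as deposited. Changes were log2 of the ratio of TPM + 1, tested for genes averaging at least 1 TPM, with 2-fold as the limit of a call. Alternatives were 0.1 TPM added, centering on the median of tested genes, removal of 642 short structural RNA genes by symbol with rescaling, no filter, a mean of at least 5 TPM, and a 1.5-fold limit. The members, gene lists and tests were chosen with earlier results of these data known. The genes named are the members, their neighbors, the highest and lowest of each list, the 3 nearest profiles and SKP2, while other list genes named with a call or value were picked after their values were seen. Gene bounds were those of the tables, which matched the RefSeq table for 9 of 10 members. Sequences are from RefSeq (GRCh38.p14). Python 3.11.15, numpy 2.4.6, pandas 2.3.3 and matplotlib 3.10.9 were used, and the scripts were tested on simulated data. Other assays of the study were not analysed here.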

Additional observations from a re-analysis of the deposited data

Results flagged for a closer look

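PEG10 stood on opposite sides of 0 in the lines with shSKP2, at 0.27 (RD) and -0.13 (JR1), which differ by 0.40 on the log2 scale. The difference was not tested, since each line had 1 library per condition, and neither change reached 2-fold. The sign in JR1 rested on the scaling, with 0.54 (RD) and 0.09 (JR1) when centered on the tested genes, and with 0.69 and 0.14 after removal of the short structural RNA genes.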

How the results depend on the processing

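Each change was taken within a line, 1 library against 1, and the labels carry no replicate numbers. A model that treats the lines as replicates of the hairpin, with line as a term, was not fitted. In the values below, the comparisons come in the order shSKP2 over shSCR in RD, the same in JR1, RD over JR1 in shSCR and the same in shSKP2, unless named. The main values of the members' median were -0.88, -1.002, 0.10 and 0.09, of the other imprinted genes' median -0.08, -0.00, -0.04 and -0.08, of all tested genes called 1097, 1406, 1291 and 1051, of members called 3, 4, 4 and 3, and of other imprinted genes called 1, 4, 2 and 2.

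Centering on the median of tested genes gave member medians of -0.61, -0.79, -0.13 and -0.078 and medians of the other imprinted genes of 0.19, 0.21, -0.27 and -0.25. It called 2 members in JR1, 2 other imprinted genes in RD and 4 between the lines in shSCR, and 730 genes in RD. Removing the structural RNA genes gave member medians of -0.47, -0.77, -0.20 and -0.050 in order, and medians of 0.24, 0.25, -0.32 and -0.21 for the other imprinted genes. It called 2 members in JR1, 3 other imprinted genes in RD (2 higher, 1 lower), 6 and 5 between the lines, and 1711 genes between the lines in shSKP2. The share of higher calls over all genes moved from 12.8% to 37.3% with centering and 56.2% with removal in RD, from 16.4% to 35.3% and 39.5% in JR1, from 65.4% to 43.0% and 40.3% between the lines in shSCR, and from 66.6% to 48.9% and 55.9% in shSKP2.

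With 0.1 TPM added, 1688, 2139 and 1678 genes were called in RD, JR1 and between the lines in shSKP2, and 4 other imprinted genes in RD and between the lines in shSKP2. Without a filter the member medians were -0.40 in RD and -0.79 in JR1. At a mean of 5 TPM the member medians between the lines were 0.34 and 0.30, 838 and 698 genes were called there, and 0, 2, 1 and 1 other imprinted genes were called. At 1.5-fold, 3425, 3729, 3556 and 2848 genes were called, and 6, 9 and 4 other imprinted genes in RD and between the lines in shSCR and shSKP2. No called change of a member changed sign under these settings. The depth is unknown, so whether low members such as MAGEL2 differ beyond counting error cannot be given.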
